A study of Homo sapiens with 4 samples.

Results

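The genes described are 8 replication-independent histone genes and 2 genes of histone mRNA production, 10 of the 58243 genes in the tables, found by gene name. They are the H2A variant genes H2AFX, H2AFZ, H2AFV and H2AFY, the H3.3 genes H3F3A and H3F3B, the linker histone genes H1F0 and H1FX, and SLBP and NPAT. All 10 were found and all 10 passed the filter on low counts. They were measured by RNA sequencing in SH-SY5Y, an established human neuroblastoma line, in 2 libraries of untreated cells (control a and b) and 2 of cells given sodium nitroprusside (SNP a and b), a compound that releases nitric oxide. Per the labels, SNP was applied for 8 h at several doses, and the dose that was sequenced is not stated. The treatment label speaks of cells differentiated with retinoic acid, in both groups, and of triplicates within 1 experiment; the growth label does not mention retinoic acid. The labels call the RNA of the SNP libraries oxidized, and name the molecule as total RNA in one field and as mRNA in another. The p-values below therefore measure the spread between these libraries, which may not be independent cultures, and 2 libraries a group limit their precision.

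Most histone proteins come from replication-dependent genes, which are transcribed in S phase and whose messages end in a stem-loop in place of a poly(A) tail. SLBP binds that stem-loop and is needed for the processing, export and translation of those messages, and NPAT is the coactivator that drives their transcription. Variant histones are made throughout the cell cycle from messages that mostly have introns and poly(A) tails. H2A.X is the variant that is phosphorylated beside DNA breaks, H2A.Z sits at promoters, macroH2A marks silent chromatin, H3.3 is deposited at active genes and telomeres, and H1.0 is the linker histone that accumulates in cells that stop dividing and differentiate.

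Summed gene counts lay between 5613144 and 8056550 per library, so that 3 counts corresponded to 0.378 to 0.533 CPM (a count scaled to a common library size after TMM), a floor that covers counting error only. The replicate libraries of each group differed by more than sampling noise, with a chi-square per degree of freedom of 3.002 for control and 5.03 for SNP. Of 10 adrenergic neuroblastoma markers 9 were tested and TH was at 0 in every library, with a summed level of 3333 and 3415 CPM in control and 2650 and 2814 CPM in SNP. Those 9 did not move together: 5 were lower and 2 higher in edgeR's test at an adjusted p under 0.05. Over all genes tested 12.6% were lower and 13.6% higher. DBH was at 673 ± 68.2 CPM in control and 259 ± 54.9 CPM in SNP, and HAND2 at 529 ± 2.82 and 703 ± 28.1 CPM (SD, n = 2 each). The 10 mesenchymal markers summed to 553 and 594 CPM in control and 482 and 474 CPM in SNP, with PRRX1, YAP1 and COL1A1 at or near 0. The highest in control were VIM at 198 CPM, NOTCH2 at 155 CPM and TWIST1 at 147 CPM. Of the 7 tested, 1 was lower and 0 higher. That was VIM, at 132 CPM in SNP (edgeR adjusted p 3.5e-04). The part of these marker levels in the results was not tested. In bulk RNA, fewer cells of a kind and less RNA per cell cannot be told apart.

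One feature separates H2AFX from the other members in the transcript models of GENCODE 29 (GRCh38). The 16-base histone stem-loop consensus, searched on the sense strand and with no mismatch allowed at its fixed bases, was present in H2AFX and in no other member. It was present in 0.687% of 19786 protein-coding genes. Of the 71 replication-dependent histone genes 32 held it, and 31 of the 32 whose model runs at least 60 bases past the stop codon did so. No match says only that these letters are not in the model. The H2AFX site is shown beside those of the replication-dependent gene of each core histone type that had a match and the largest fall in SNP, because it is the element that SLBP binds. The stem-loop is in capitals and up to 5 flanking bases on each side are in lower case, 5′ to 3′ on the sense strand.
H2AFX: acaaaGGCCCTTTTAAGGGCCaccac
HIST1H2AI: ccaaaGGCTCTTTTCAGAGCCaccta
HIST1H2BE: ccaaaGGCTCTTTTCAGAGCCa
HIST2H3A: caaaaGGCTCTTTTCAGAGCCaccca
HIST1H4B: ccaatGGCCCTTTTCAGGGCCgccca

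The H2AFX site lies at chr11:119094898-119094913 on the minus strand, 49 bases after the stop codon. In the coding transcript of 1614 bases another 1044 bases follow it. The model thus holds both the stem-loop and a long sequence beyond it, and H2AFX is known to give a short stem-loop message in dividing cells and a long polyadenylated one. The gene counts do not separate the 2 forms. The other 4 sites are at chr6:27808647-27808662 (HIST1H2AI, plus strand), chr6:26184210-26184225 (HIST1H2BE, plus), chr1:149853105-149853120 (HIST2H3A, plus) and chr6:26026901-26026916 (HIST1H4B, minus), between 24 and 44 bases after the stop codon.

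SNP was compared with control to see which of these genes differed after exposure. H2AFX fell to about 0.476 of its control level, H1F0 rose 1.86-fold and NPAT fell to 0.780 of control. The other 7 members, among them both H3.3 genes and SLBP, did not pass. These 3 of 10 stand against a background of 26.2% of the 14759 genes tested at an adjusted p under 0.05. By direction, 1 of 10 was higher against 13.6% of all genes, and 2 of 10 were lower against 12.6%. The median log2 fold change of the 10 members was -0.17, and that of all genes tested was -0.0042. The groups did not overlap for 7 of the 10, against 64% of all genes tested. As a group these shares are close to the background, and the results below are about single genes.

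**Figure D1:**
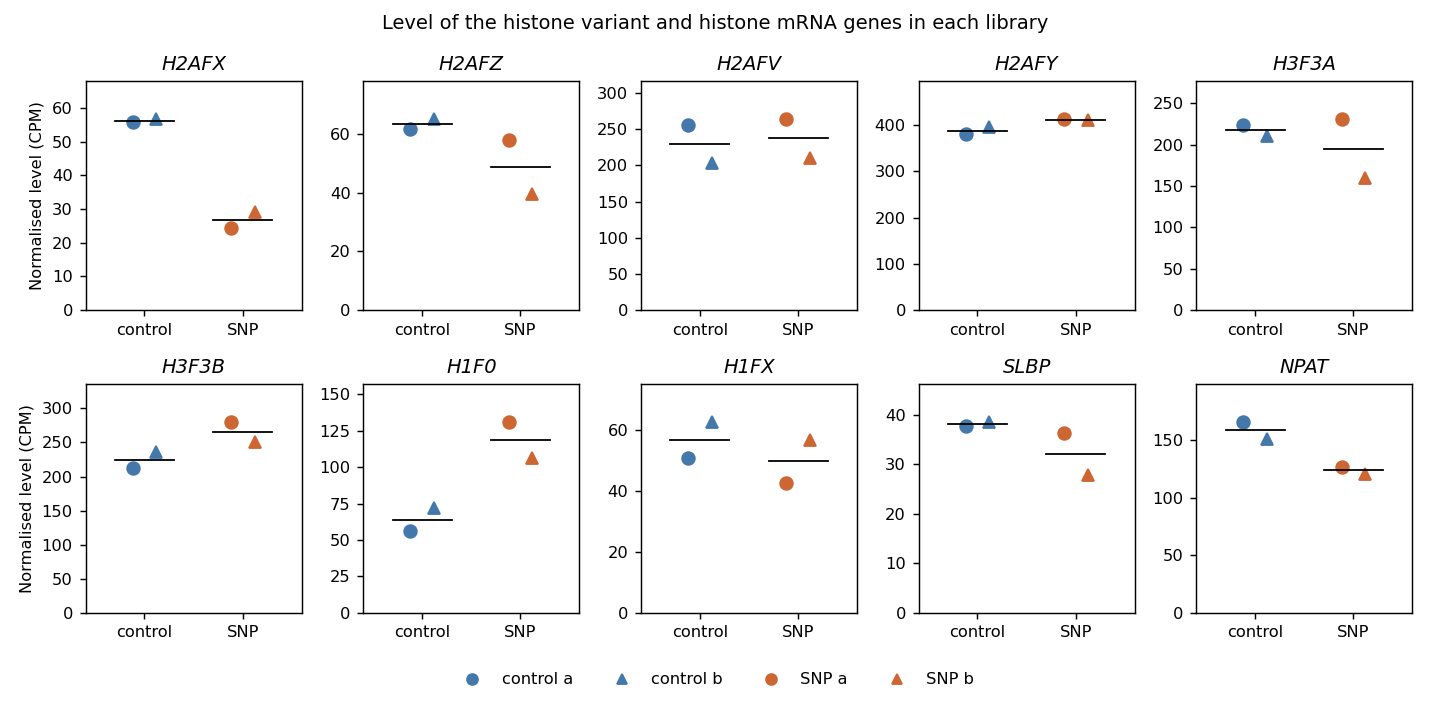
Level of each of the 10 genes in CPM (vertical axis, from 0) in control (blue) and SNP (orange) libraries; circles are libraries a, triangles libraries b, and bars the mean of 2. H2AFX lies at 55.7 and 56.6 CPM in control and at 24.4 and 29.04 in SNP, H1F0 moves the other way, and H2AFV and H1FX overlap between groups.

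H2AFX (ENSG00000188486, chromosome 11, 119093854 to 119095467, minus strand, a single exon of 1614 bases) encodes H2A.X. It was counted 361 and 319 times in control a and b, and 194 and 224 times in SNP a and b. The normalised levels were 55.7 and 56.6 CPM in control and 24.4 and 29.04 CPM in SNP. The control libraries were nearly equal, and both SNP libraries lay far below them. On the log2 scale H2AFX fell by 1.07 (SE 0.142), and the quasi-likelihood test of edgeR, adjusted for all genes by Benjamini-Hochberg, gave 1.6e-05. Ranked among all genes tested, this change was at percentile 1.90. H2AFX passed under all 15 alternative fits run, with log2 fold changes from -1.20 to -0.55. The smallest, -0.55, came from offsets on gene length, GC and guanine-over-cytosine content, where the adjusted p of edgeR's test was 0.0054. Its transcripts hold 31.6% guanine and 35.3% cytosine, and its guanine-minus-cytosine content was at percentile 6.70 of the genes tested.

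H2AFZ and H2AFV encode the H2A.Z proteins H2A.Z.1 and H2A.Z.2, which are nearly identical. H2AFZ (chromosome 4, 99948086 to 99950388, minus strand) was at 61.5 and 65.0 CPM in control and at 57.8 and 39.5 CPM in SNP. Both SNP values were below both controls, but SNP a was near the control level and SNP b was not. The log2 fold change of -0.38 (SE 0.149) did not pass, with an adjusted p of 0.0664 by edgeR's test. Without SNP a the value was -0.68, and without SNP b it was -0.13. Under guanine-over-cytosine offsets H2AFZ passed, at -0.86 with an edgeR adjusted p of 6.1e-04. Its guanine-minus-cytosine content lies at percentile 98.4. H2AFV (chromosome 7, 44826791 to 44848083, minus strand) was at 256 and 204 CPM in control and at 264 and 211 CPM in SNP. The 2 groups overlapped almost fully, and the log2 fold change was 0.044 (SE 0.118; edgeR adjusted p 0.824). With the guanine-over-cytosine offsets H2AFV passed as lower, at -0.46 and an edgeR adjusted p of 0.0054, with its guanine-minus-cytosine content at percentile 97.1.

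H2AFY (chromosome 5, 135333900 to 135399914, minus strand) encodes macroH2A1, an H2A with a large additional domain. Its levels were 380 and 396 CPM in control and 413 and 412 CPM in SNP. The SNP libraries lay just above the controls, by a log2 fold change of 0.086 (SE 0.0895; edgeR adjusted p 0.516). It was the member with the highest CPM and a model of 17730 exonic bases, of which 4968 are shared with C5orf66 on the opposite strand. C5orf66 had between 2 and 12 counts per library. Counting by strand is not given in the sources used here.

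H3F3A (chromosome 1, 226061851 to 226072001, plus strand) and H3F3B (chromosome 17, 75776434 to 75785893, minus strand) are separate genes for the same H3.3 protein. H3F3A was at 224 and 211 CPM in control and at 231 and 160 CPM in SNP. SNP a was above both controls and SNP b below both, and the log2 fold change of -0.16 (SE 0.127) did not pass, at an edgeR adjusted p of 0.397. Without SNP a the value was -0.45, and without SNP b its direction turned, at 0.089. A fit with 1 SNP library does not measure the spread between SNP a and b. H3F3B was at 213 and 236 CPM in control and at 280 and 251 CPM in SNP, so that both SNP libraries were above both controls. Its log2 fold change of 0.24 (SE 0.0998) did not pass, with an edgeR adjusted p of 0.0761. Without SNP b the value was 0.33, and with length and GC offsets H3F3B passed, at 0.24 with an edgeR adjusted p of 0.0466. Under guanine-over-cytosine offsets its value was -0.069. The H3F3B model shares 214 exonic bases with UNK on the opposite strand, which fell by 0.34 on the log2 scale (edgeR adjusted p 0.0340). The 5 pseudogenes of H3F3A, 2 of H3F3B and 5 of H2AFZ listed in the tables had 0 counts in every library, so the division of reads between these genes and their copies could not be checked.

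The 2 genes of each pair were also set against each other within a library, on counts per kilobase of exon. H3F3A made up 67.3% and 63.5% of the H3.3 pair in control a and b, and 61.6% and 55.4% in SNP a and b. The Wilson 95% intervals, which cover counting error only, ran from 61.7% to 68.9% over the control libraries and from 53.6% to 63.1% over the SNP libraries. The mean share was 65.4 ± 2.65% in control and 58.5 ± 4.41% in SNP (SD, n = 2 each), and SNP a and b were nearly as far apart as the means. These shares use GENCODE 29 models of 3146 bases for H3F3A and 6134 for H3F3B. The deposited TPM implies a shorter H3F3B: in control H3F3A was at 332 and 318 TPM and H3F3B at 313 and 355 TPM. In SNP they were at 366 and 265 TPM and at 443 and 415 TPM. Which gene made up more of the pair thus depends on the length used, and the order of the libraries does not. H2AFZ made up 33.1% and 39.7% of the H2A.Z pair in control and 31.1% and 27.9% in SNP. Its means were 36.4 ± 4.64% and 29.5 ± 2.26%, and here control a and b were nearly as far apart as the means. The groups did not overlap in either pair. An exact two-sided permutation test gave p = 0.33 for each, the smallest value that 2 against 2 libraries can give.

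H1F0 (ENSG00000189060, chromosome 22, 37805093 to 37807436, plus strand, a single exon of 2344 bases) encodes H1.0. It was counted 363 and 405 times in control and 1041 and 822 times in SNP. The levels were 56.0 and 71.9 CPM in control and 131 and 107 CPM in SNP. The libraries of each group were some way apart, yet the lower SNP value was well above the higher control value. H1F0 rose by 0.90 on the log2 scale (SE 0.132; edgeR adjusted p 4.5e-05), which ranks at percentile 95.5 among all genes tested. Under all 15 alternative fits H1F0 passed as higher, with log2 fold changes from 0.72 to 1.09 and adjusted p-values up to 8.5e-04 in edgeR, limma-voom or DESeq2. Its exons overlap no other gene's.

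H1FX (chromosome 3, 129314771 to 129316277, minus strand, a single exon) encodes the linker variant H1.10. It was at 50.7 and 62.7 CPM in control and at 42.5 and 56.8 CPM in SNP, and the groups overlapped. Its log2 fold change was -0.19 (SE 0.147) and did not pass, with an edgeR adjusted p of 0.375. The direction of H1FX was not stable. The log2 fold change was 0.37 with the guanine-over-cytosine offsets (edgeR adjusted p 0.0328) and -0.41 without SNP b. The guanine-minus-cytosine content of H1FX was at percentile 5.43. H1FX shares 345 exonic bases with H1FX-AS1 on the opposite strand, which had 36 to 50 counts per library. Of the 6 replication-dependent linker genes 4 were tested and 0 passed in edgeR's test, beside 26.2% of all genes tested. Their log2 fold changes ran from -0.54 to -0.17. Only HIST1H1E among those 4 had an unadjusted edgeR p under 0.05, at 0.0201. The 6 genes summed to 126 and 140 CPM in control a and b and to 143 and 63.8 CPM in SNP a and b, so the SNP libraries were far apart.

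Among counts per kilobase of all 8 linker histone genes in the tables, H1F0 held 10.0% and 11.2% in control and 19.2% and 25.9% in SNP. Against H1FX alone its share was 41.5% and 42.5% in control and 66.4% and 54.7% in SNP. The control libraries were close together in both measures, and the SNP libraries were higher and more spread. The H3.3 pair held 21.6% and 18.3% of the counts per kilobase of the 17 histone H3 genes in control and 33.6% and 42.3% in SNP. Those H3.3 shares rest on the long H3F3B model and would be larger with the length its TPM implies. In these 3 comparisons, chosen after the values were seen, the groups did not overlap and the exact permutation p was again 0.33, the smallest possible. A share of this kind moves with the replication-dependent genes in its denominator, and their messages are counted only as far as the library preparation, whose use of poly(A) is not given in the sources used here, captured them.

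**Figure D2:**
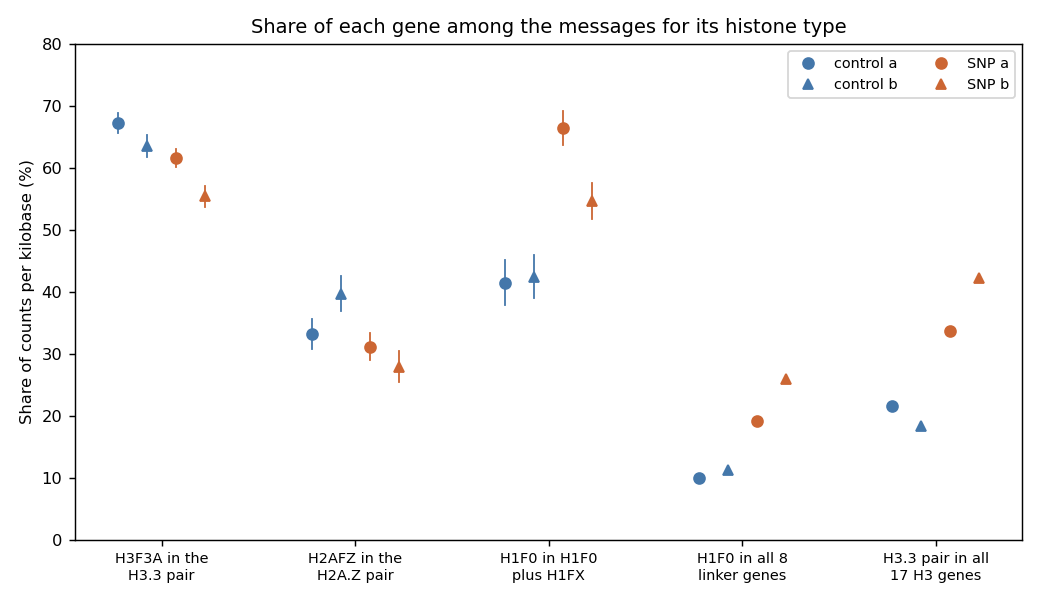
Share of counts per kilobase (percent, vertical axis) held by each gene among the messages for its histone type, 1 point per library; vertical lines are Wilson 95% intervals where the share is of 2 genes. H3F3A and H2AFZ have lower shares in SNP, while H1F0 goes from 10.0% and 11.2% of all linker messages in control to 19.2% and 25.9% in SNP. Shares that include H3F3B rest on its model of 6134 exonic bases, longer than its deposited TPM implies.

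SLBP (chromosome 4, 1692800 to 1712555, minus strand) was counted 244 and 217 times in control and 288 and 215 times in SNP. This gave 37.6 and 38.5 CPM in control and 36.3 and 27.9 CPM in SNP. Both SNP values lay below both controls, SNP a by very little. The log2 fold change was -0.25 (SE 0.155) and did not pass, with an edgeR adjusted p of 0.259. SLBP passed in 0 of 15 alternative fits, where its value ran from -0.45 to -0.067 and its adjusted p from 0.0505 upward.

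NPAT (chromosome 11, 108157215 to 108222642, minus strand, 19 merged exons) was counted 1077 and 852 times in control and 1005 and 934 times in SNP. Its levels were 166 and 151 CPM in control and 127 and 121 CPM in SNP. Both SNP libraries were lower than both controls, and control a was the highest of the 4. NPAT fell by 0.36 on the log2 scale (SE 0.104), at an edgeR adjusted p of 0.0139. It did not pass without control a, at -0.29 with an edgeR adjusted p of 0.216, nor with RPKM-implied read totals, at -0.29 and 0.175. NPAT shares 143 exonic bases with ATM, its neighbour on the opposite strand. ATM had a log2 fold change of -0.052 (SE 0.0906; edgeR adjusted p 0.719), and the difference between the neighbours was not tested.

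**Figure D3:**
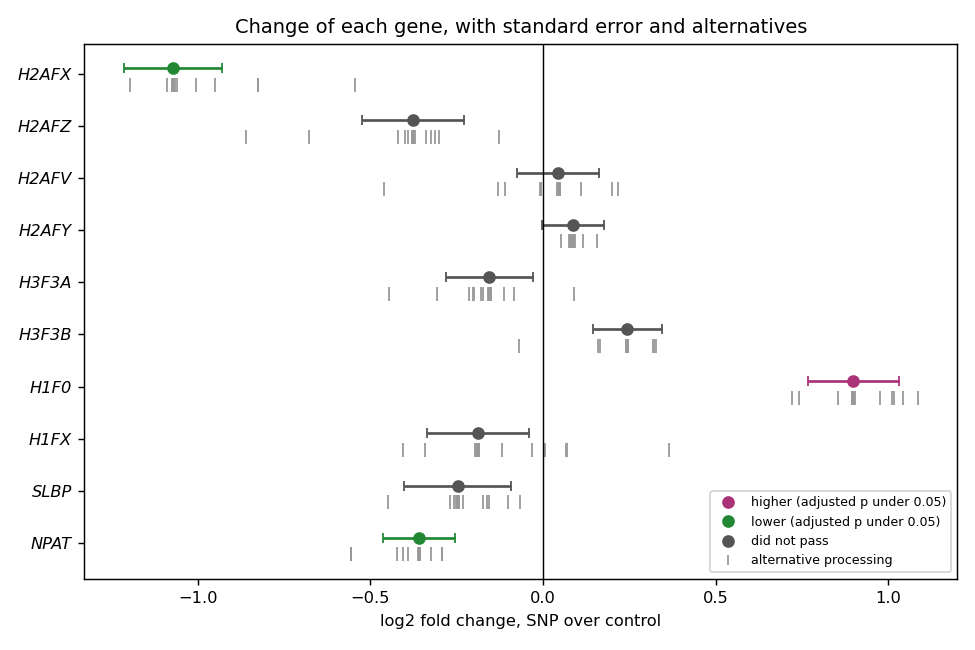
Log2 fold change of SNP over control (horizontal axis) for each gene; the dot is the estimate, the bar its standard error, and the grey ticks the 15 alternative fits. All ticks of H2AFX lie between -1.20 and -0.55 and all of H1F0 between 0.72 and 1.09, while those of H2AFV, H3F3A, H3F3B and H1FX fall on both sides of 0.

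Per length, on the TPM scale, which divides by transcript length, the H3.3 genes led the members. H3F3B was at 334 ± 29.2 TPM and H3F3A at 325 ± 9.70 TPM in control (SD, n = 2 each), a difference within their spread. H2AFV followed at 227 ± 33.7 TPM, then H1FX at 177 ± 28.7 TPM and H2AFX at 164 ± 4.20 TPM, which were also within their spread of each other. H2AFZ at 129 ± 6.73 TPM and H1F0 at 128 ± 24.3 TPM did not differ beyond their spread. H2AFY at 103 ± 4.33 TPM, NPAT at 99.0 ± 5.21 TPM and SLBP at 88.4 ± 2.67 TPM were lowest. In SNP the order changed mainly through 2 genes. H1F0, at 258 ± 29.3 TPM, moved from the rank of 7 to that of 3, level with H2AFV at 255 ± 32.2 TPM. H2AFX, at 84.8 ± 13.1 TPM, moved from 5 to 8, beside NPAT at 84.0 ± 0.138 TPM and SLBP at 80.7 ± 12.3 TPM.

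The replication-dependent genes give the setting for H2AFX, SLBP and NPAT. Of the 71 protein-coding genes of this kind 62 were tested, 47 fell and 0 rose in edgeR's test, with a median log2 fold change of -1.13 beside -0.0042 for all genes. Over all genes tested 12.6% were lower and 13.6% higher. HIST1H2BM and HIST1H2AJ fell most, both by 1.67, with edgeR adjusted p-values of 3.0e-06 and 6.7e-05; reads of such closely similar genes may have been shared out among them in counting. With no filter on low counts, and also without control a, without control b or without SNP b, HIST2H2AA4 and HIST1H2AD passed as higher, with 35 and 41 counts in SNP a and at most 1 in each other library. The summed level of all 71 replication-dependent genes was 1738 and 1975 CPM in control and 1099 and 687 CPM in SNP. The 10 members together had 1501 and 1492 CPM in control and 1606 and 1413 CPM in SNP. The value of H2AFX, -1.07, lies within the range of the replication-dependent genes, with 36 of the 62 below it. The 30 tested genes whose model holds a stem-loop match had a median of -1.08, with 25 of them lower. The 32 with no match in the model had a median of -1.19, with 22 lower. Most models without a match end at or soon after the stop codon. This split therefore follows the length of the model and cannot compare genes with and without the element.

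H2AFX did not share the replicate pattern of these genes. SNP b was below SNP a in 60 of the 62, with a median log2 ratio of -0.77, whereas H2AFX was higher in SNP b than in SNP a. This order of 2 libraries is a description and was not tested. Of the 10 members 8 were lower in SNP b, all but H2AFX and H1FX. Leaving out SNP a or SNP b moved the median of the replication-dependent genes to -1.66 or -0.77, and moved H2AFX only to -0.95 or -1.20.

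**Figure D4:**
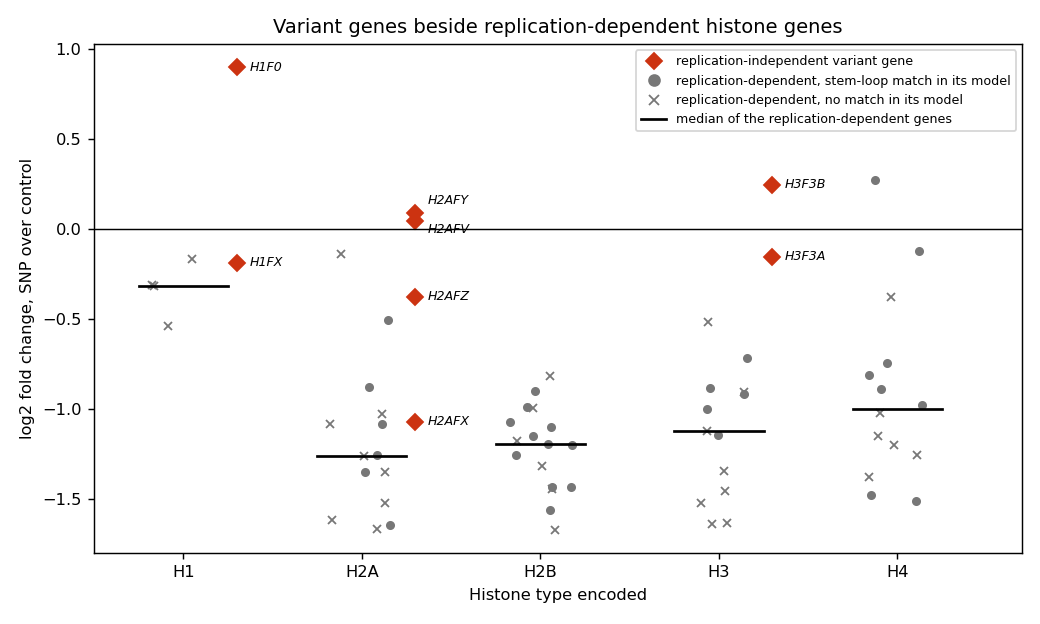
Log2 fold change of SNP over control (vertical axis) by the type of histone encoded; grey points are replication-dependent genes, with a circle where the model holds a stem-loop match, bars are their medians, and red diamonds are the variant genes. H2AFX at -1.07 lies among the replication-dependent H2A genes, whose median is -1.26, while H1F0 at 0.90 is above all linker genes.

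The remaining replication-independent variants in a list of 4 were CENPA, H2AFY2, H2AFJ and H3F3C. CENPA, the centromeric H3, was at 16.3 ± 1.53 CPM in control and 11.6 ± 2.11 CPM in SNP (SD, n = 2 each), and H2AFY2, which encodes macroH2A2, at 57.8 ± 7.85 and 68.6 ± 0.915 CPM. Their log2 fold changes of -0.50 and 0.25 did not pass, with edgeR adjusted p-values of 0.0928 and 0.154. CENPA passed without SNP a, at -0.70 with an edgeR adjusted p of 0.0396, and H2AFY2 passed with length and GC offsets, at 0.39 and 0.0116. CENPA shares 138 exonic bases with SLC35F6, which lies on the same strand and had 439 to 672 counts per library. SLC35F6 had a log2 fold change of -0.74 (edgeR adjusted p 1.0e-04). The part of this overlap in the value of CENPA was not tested. H2AFJ had 1 to 6 counts per library and H3F3C 1 count in all, and neither was tested.

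A list of 27 genes covered the transcription, 3′ end formation and decay of histone messages. All 27 were tested, 8 were higher and 0 lower in edgeR's test, with a median log2 fold change of -0.036. Among all genes tested 13.6% were higher and 12.6% lower. Over both directions together the list's share of calls was near the 26.2% of all genes, but all 8 of its calls were higher. CCNE2 and CCNE1, the cyclins that with CDK2 activate NPAT, had values of -0.53 and -0.46 and did not pass (edgeR adjusted p 0.0532 and 0.159). NCBP2, a cap-binding protein, rose from 52.5 ± 2.07 to 99.0 ± 21.6 CPM, or by 0.92 on the log2 scale (edgeR adjusted p 5.5e-05). SRRT (ARS2), which links the cap to 3′ end formation, rose by 0.64, and CASP8AP2 (FLASH), which works with the U7 particle in cleaving histone messages, rose by 0.54. CSTF2, of the cleavage stimulation factor, rose by 0.55. Their edgeR adjusted p-values were 2.0e-04, 4.5e-04 and 0.0142. NCBP2 was at 0.35 (edgeR adjusted p 0.0312) under guanine-over-cytosine offsets, with its guanine-minus-cytosine content at percentile 96.8. CASP8AP2 was lost under guanine-over-cytosine offsets, at 0.11 and an edgeR adjusted p of 0.310. CSTF2 did not pass with DESeq2, where its adjusted p was 0.0604, or without control a, control b or SNP a, with edgeR adjusted p-values of 0.0721, 0.0793 and 0.122. With guanine-over-cytosine offsets 5 of the 27 were higher and 4 lower. Of all 14759 genes tested 1280 were then higher and 1634 lower. With length and GC offsets 3 passed as lower, beside 2228 of all genes. DESeq2 called 5 as higher, beside 1272 of all genes. Fewer of the 27 were also higher without control a or without control b, where fewer of all genes passed too.

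Histone chaperones carry the variants to chromatin, and remodellers exchange them there. All 28 genes of that list were tested, 7 were higher and 3 lower in edgeR's test, with a median of -0.0067, against 13.6% higher and 12.6% lower over all genes tested. CHAF1A, the large subunit of the replication-coupled assembly factor, rose by 0.71 from 87.8 ± 7.21 to 143 ± 9.05 CPM. ATRX, which deposits H3.3 at telomeres and repeats together with DAXX, rose by 0.55 from 755 ± 39.7 to 1107 ± 20.4 CPM. NAP1L4, an H2A and H2B chaperone, and SUPT16H, of the FACT complex, rose by 0.44 and 0.43. The adjusted p-values from edgeR's test were 7.9e-05, 6.9e-05, 0.0036 and 0.0022 in this order. ASF1B, a chaperone of H3 and H4 in dividing cells, fell by 0.95 from 20.3 ± 2.48 to 10.5 ± 1.95 CPM. RUVBL2, a subunit of the complexes that exchange H2A.Z, fell by 0.48, and HJURP, the chaperone of CENPA, by 0.42. Their edgeR adjusted p-values were 0.0021, 0.0105 and 0.0288. With the guanine-over-cytosine offsets only 1 gene of this list was higher, where 1280 of all 14759 genes tested were higher. ATRX was then at 0.019, NAP1L4 at 0.15, and SUPT16H at 0.061, and ASF1B did not pass at -0.51. NAP1L4 also did not pass without control b, at 0.39 with an edgeR adjusted p of 0.0820. Fewer genes of this list were lower without control b or without SNP a, and fewer were higher without SNP a. In these fits fewer of all genes passed too. RUVBL2 did not pass without control b, at -0.27 with an edgeR adjusted p of 0.326, or without SNP a, at -0.37 and 0.0530. HJURP passed in 10 of the 15 alternative fits. Its adjusted p was 0.108 with DESeq2, and in edgeR 0.115 with RPKM-implied read totals, 0.328 without control a, 0.0508 without control b and 0.0535 without SNP a.

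Of 16 S phase genes all were tested, 5 were lower and 0 higher in edgeR's test, with a median of -0.18, against 12.6% lower and 13.6% higher over all genes tested. CDT1, which licenses replication origins, fell from 87.4 ± 3.10 to 40.6 ± 6.81 CPM, or by 1.11 on the log2 scale (edgeR adjusted p 4.0e-06), and by 0.67 with guanine-over-cytosine offsets (edgeR adjusted p 7.2e-04). RRM2, of ribonucleotide reductase, fell by 0.67 (edgeR adjusted p 3.9e-05). The other 11, among them PCNA and the MCM genes other than MCM4, did not pass. With RPKM-implied read totals 3 of the 16 were lower, where 1218 of all 14759 genes tested were lower. Fewer of the 16 were also lower without control a or without control b, where fewer of all genes passed too.

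**Figure D5:**
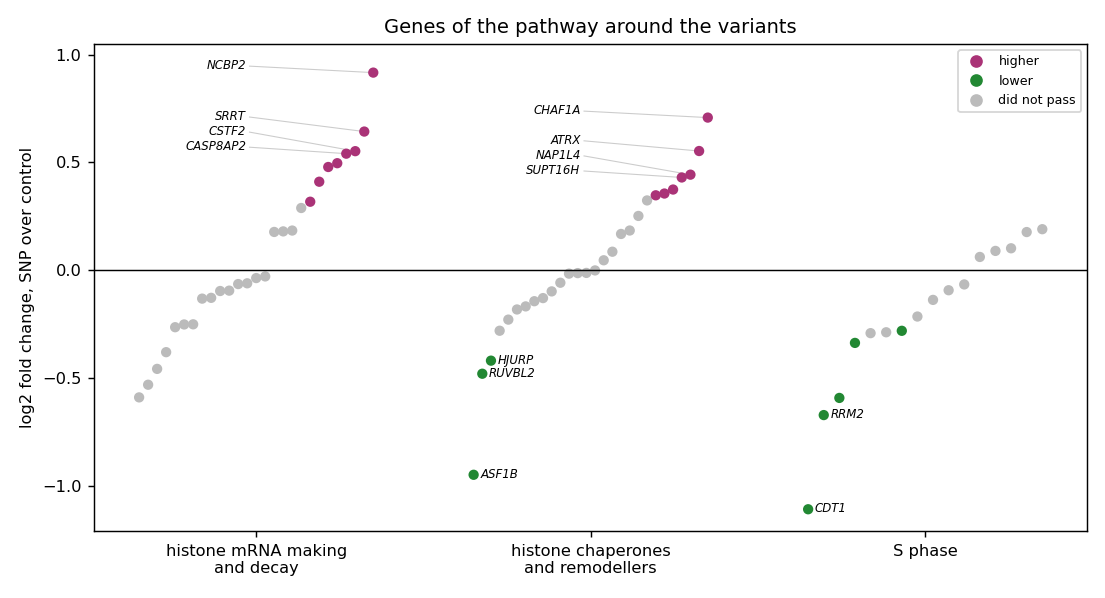
Log2 fold change of SNP over control (vertical axis) for the genes of 3 lists, ordered within each list; colours mark genes that passed as higher or lower, and labels the genes named by rule. NCBP2 at 0.92 and CHAF1A at 0.71 lead the rises, and CDT1 at -1.11 and ASF1B at -0.95 the falls.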

How the data were processed

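The 4 tables, 1 per library, list genes with counts, TPM and RPKM. The count column deposited by the authors holds whole reads per gene, not normalized. The deposited TPM values were used as they stand to order genes per length. RPKM as deposited implies library totals of about 48718084 to 61966252 reads, far above the summed counts, and served for 1 alternative scaling. The build is GRCh38 per the submitters' processing notes; aligner, counter and annotation are not given in the sources used here. Of 58243 identifiers 57980 were found in GENCODE 29, from which positions, exon lengths and base composition come, and at least 89.1% of genes with over 50 counts had a matching length. Among the members H3F3B did not match: its model of 6134 exonic bases is longer than its deposited TPM implies.

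Counts were tested with edgeR 4.0.16 in R 4.3.3: filterByExpr (minimum count 10, total 15), TMM scaling, and the quasi-likelihood test over all 4 libraries without covariate. Adjustment was by Benjamini-Hochberg over all genes tested, with 0.05 as threshold, and SE was derived from the F statistic. DESeq2 1.42.0 and limma 3.58.1 (voom) were alternatives, with other filters, scalings, a replicate block, offsets on length and base composition (lowess, span 0.5), a threshold of 0.01, and each library left out. Total counts per library set the precision. A fit with 1 library left out has 1 group without a replicate, and its p-values take their spread from the other group alone. The script was tested on simulated data.

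The members and lists were chosen with earlier results of these data known. Genes named beyond the members were those of the 4 other variants, and in each list up to 4 per direction (up to 2 for S phase and replication-dependent genes) with the largest change among those that passed, did not overlap between groups and had a mean of at least 5 CPM. CCNE1, CCNE2, HIST1H1E, HIST2H2AA4, HIST1H2AD, DBH, HAND2, PCNA and MCM4 were named after their values were seen. So were VIM, NOTCH2, TWIST1, the genes that share exons with members and the 4 stem-loop examples. CPSF3L was found in the tables as INTS11.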

Additional observations from a re-analysis of the deposited data

How the results depend on the processing

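H2AFX and H1F0 kept their direction and passed in all 15 alternative fits, and NPAT in 13. The genes called among all tested, 3861, numbered 2415 by the Wald test of DESeq2 and 2224 at a threshold of 0.01; without 1 library they ranged from 2447 to 4144. Members called higher, 1, became 2 with the replicate block, with length and GC offsets, with those and the block, and with guanine-over-cytosine offsets, and ranged from 1 to 2 without 1 library. Members called lower, 2, became 1 with the read totals implied by RPKM and at 0.01, and 4 with guanine-over-cytosine offsets, and ranged from 1 to 4 without 1 library. The read totals implied by RPKM moved the share of calls that were higher from 51.9% to 63.1%. Under guanine-over-cytosine offsets it was 43.9%. Among members that had not passed, the sign turned for H2AFV with length and GC offsets (-0.0088, or -0.0051 with the block) and with guanine-over-cytosine offsets (-0.46), for H3F3B with the latter (-0.069), and for H1FX with these 3 settings (0.068, 0.066 and 0.37); of these, H2AFV at -0.46 and H1FX at 0.37 passed. Without 1 library H2AFV ranged from -0.13 to 0.22, H3F3A from -0.45 to 0.089 and H1FX from -0.41 to 0.0062. The summed level of the members, 13.1 CPM higher in SNP, ranged from -83.5 to 110 CPM. The median of the genes for histone message production, -0.036, was 0.034 with the RPKM totals and 0.021 to 0.043 without 1 library. The median of the chaperones and remodellers, -0.0067, was 0.063 with the RPKM totals, 0.012 with length and GC offsets (0.011 with the block) and 0.0095 to 0.064 without 1 library. With the replicate letter as a block H2AFZ and H3F3B also passed, at -0.39 and 0.24, and 4487 genes were called; across genes, a minus b in control correlated with a minus b in SNP at 0.055, so the letters were not taken to pair the libraries. The cause of these shifts was not tested. With 2 libraries a group, no permutation of a single value can go below p = 0.33.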
